A study of Mus musculus with 26 samples.

Results

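Sh3bgrl is an X-linked mouse gene whose transcript carried 8 sites of C-to-U RNA editing in macrophages, all of them in the 3′ untranslated region. The sites were taken as every entry with the symbol Sh3bgrl in the deposited lists, which gave 6 of the 410 sites found in a bulk library and 5 of the 171 sites found in single cells. With 3 sites in both lists, these make 8 of 526 sites in all. The gene was selected on its editing rates in the single cells, where its sites appeared to be edited together, so those rates and their correlations are given as a description with no test.

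The samples were bone marrow-derived macrophages of C57BL/6J mice aged 6 to 8 weeks, matured in culture with 20 ng per ml of M-CSF, a growth factor that drives marrow progenitors to macrophages, and harvested after 7 to 9 days. A bulk wild type library was set against a bulk Apobec1 -/- library, each made from 500000 to 1000000 cells, and 24 wild type macrophages were captured singly on a microfluidic chip, all from the same mouse. For the bulk list, the knockout library served to keep C-to-T changes read in wild type RNA only, and no value of it is listed. Whether sites found only in the single-cell list passed that comparison is not stated in the sources used here. Each genotype had 1 bulk library and thus no replicates, and the 24 cells are the population measured and not replicates of a condition. The lists hold editing rates and no expression values, so neither the macrophage label nor the loss of Apobec1 could be checked against marker genes.

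APOBEC1 deaminates cytidine to uridine in RNA and is best known from the apolipoprotein B transcript of the intestine. It works with RNA-binding partners, prefers a C with an A before it in A- and U-rich surroundings, and in apolipoprotein B relies on a mooring sequence a few bases downstream of the edited C. Editing in a 3′ untranslated region leaves the protein as it is and changes the stretch of RNA that microRNAs and RNA-binding proteins can contact. Sh3bgrl encodes a small protein of the SH3-binding glutamic acid-rich family, which has a thioredoxin-like fold.

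The Sh3bgrl sites lie in exon 4 of the coding transcript, on the plus strand of chromosome X in mm10. This exon, from 109160130 to 109162471 in the GENCODE annotation, holds the end of the coding sequence and a 3′ untranslated region of 2309 nucleotides after the stop codon. Each site is named here by its distance after the last base of the stop codon. The first lay at 138 nt and the last at 2012 nt, so the sites spread over 1874 nucleotides, and the authors' annotation also placed each of them in the 3′ untranslated region. The surroundings of the edited base are printed for all 8 sites because the base before it is what they share most closely. They are taken from the RefSeq sequence of GRCm38, the assembly behind mm10, sense strand, 10 bases before to 19 after the site, with the edited C and the base before it in capitals.
138 nt, both lists, chrX:109160290-109160319: cgcatgcaaACaagcataatgaaaatgtga
258 nt, bulk list, chrX:109160410-109160439: aaggattttACaaaaaatcaatatgctcct
637 nt, bulk list, chrX:109160789-109160818: agccagtgaTCaaaatagctggcttcccgt
890 nt, bulk list, chrX:109161042-109161071: gtttgctgaACgaagtagtagtggctcttg
1185 nt, both lists, chrX:109161337-109161366: acatcttttACttcaaattactattatcat
1230 nt, single-cell list, chrX:109161382-109161411: ctagactgtACttggcaaaaattcaatatg
1273 nt, single-cell list, chrX:109161425-109161454: gcttagtttACtgaaactcaaacgtgaatt
2012 nt, both lists, chrX:109162164-109162193: ctttcaaaaACactgtaaattgttaattgt

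An A preceded the edited C at 7 of the 8 Sh3bgrl sites, and a T at the 637-nt site. Among the 518 other listed sites an A came first at 84.9%, and among the 342 unlisted C of the same untranslated region at 30.7%. The 3 neighbouring sites at 1185, 1230 and 1273 nt share the letters TACT around the edited C. That region holds 105 further C with an A before them that neither list holds. The mooring sequence of the apolipoprotein B transcript, searched on the sense strand without gaps in the 19 bases downstream, was matched at best in 7 of its 11 letters, at the 258-nt site, and in 4 to 6 letters at the others. At least 7 letters were matched by 12.5% of the Sh3bgrl sites, 15.1% of the other listed sites and 9.71% of all 350 C of the region. Its first letters TGAT stood downstream of none of the 8 sites within 19 bases on the sense strand, against 11.2% of the other listed sites and 14.6% of the C of the region. On the opposite strand TGAT was found at 2 of the 8 Sh3bgrl sites (25%), 8.30% of the other sites and 8% of the C of the region. So small a count does not set the Sh3bgrl sites apart. At the 258-nt site these letters lie within the stretch already counted as the mooring match of 7 letters. The 50 bases on either side were 58% to 70% A plus T, with a median of 68.5%, close to the 67% of the other listed sites and the 66.8% of the untranslated region as a whole. The A before the C was thus the feature in which the Sh3bgrl sites stood farthest from the other C of the region, and these matches describe letters and not binding.

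The hexamers AATAAA and ATTAAA, which can mark the place of RNA cleavage and polyadenylation, stood at 1429, 1813, 1828 and 2287 nt after the stop codon on the sense strand. The last of these lies 22 nucleotides before the annotated end. The 2012-nt site was the only one downstream of the first 3 hexamers, and the other 7 lay upstream of all of them.

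In the bulk library Sh3bgrl was edited at 14.3% to 30.0%, above the list's median of 11.8% at each of its 6 sites. An editing rate is the share of reads over a site that carry the edited base. The highest rate was 30.0% at the 890-nt site, with 12 edited reads of 40 (exact 95% interval 16.6% to 46.5%), the 12th highest of the list. The 2012-nt site, nearest the end of the transcript, was edited in 15 of 71 reads, 21.1% (12.3% to 32.4%), and was the deepest, deeper than 90.7% of the list. The 138-nt site followed with 7 of 36 reads, 19.4% (8.19% to 36.0%). At 258 nt, 7 of 38 reads were edited, 18.4% (7.74% to 34.3%). The lowest rates were those of the 1185-nt site, with 6 of 41 reads and 14.6% (5.57% to 29.2%), and the 637-nt site, with 5 of 35 reads and 14.3% (4.81% to 30.3%). Rates of at least 20% stood at 2 of the 6 Sh3bgrl sites, against 10.5% of the bulk list. These Clopper-Pearson intervals cover the error of counting alone, because several reads may stem from 1 molecule.

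Over the 6 bulk sites of Sh3bgrl, 52 of 261 reads were edited, 19.9%, and the mean rate was 19.7% ± 5.74 (SD, n = 6 sites). Only 4 genes of the 275 had more bulk sites, and 1 other had as many. The sites lay 120 to 827 nucleotides from their neighbours, so that no 100-nucleotide read could cover a pair of them. None of the 15 pairs of sites differed in rate by a two-sided Fisher's exact test of edited and unedited reads, with the lowest p at 0.115 and the lowest p adjusted by Benjamini-Hochberg at 0.985. The pair with the lowest p was 890 nt against 1185 nt, where the second minus the first was -15.4 percentage points, with a 95% interval from -32.6 to 2.88. At this depth a difference of that size between Sh3bgrl sites was not detectable, which leaves the order of the rates undecided. The test compares reads of a single library.

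**Figure D1:**
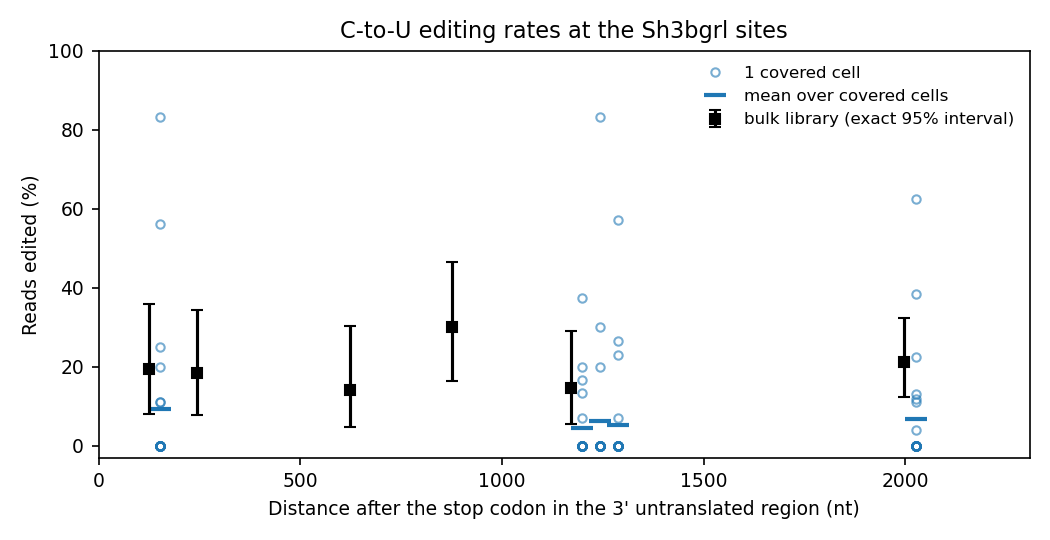
Editing rate in percent of reads (vertical axis) against distance after the stop codon in nucleotides (horizontal axis, up to the annotated end). Black squares give the bulk library with exact 95% intervals, circles the covered cells and blue bars their means, drawn slightly to the left and right of each site; the bulk rates lie between 14.3% and 30.0%, while most cells sit at 0 and a few reach up to 83.3%.

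In single cells Sh3bgrl editing was uneven, with no edited site in many macrophages and high rates in a few. Of the 24 cells, 12 had no edited reads at any of the 5 listed sites, 5 had 1 edited site, 4 had 2 and 3 had 4 of the 5. The deposited table gives a rate per cell without read depth, so a cell at 0 may have had few reads and no counting interval can be given. Its columns carry no cell names, and cells are called here by the place of their column, from 1 to 24. Of 120 values, 109 were covered and 25 were above 0. Of those 25, 12 belonged to the 3 cells with 4 edited sites, cells 12, 16 and 20.

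The 138-nt site of Sh3bgrl was covered in 22 cells and edited in 6, with a lowest and a median rate of 0 and a highest of 83.3%. Cell 20 was at 83.3%, cell 16 at 56.2%, cell 7 at 25%, cell 12 at 20.0% and cells 3 and 14 at 11.1% each. The mean over covered cells was 9.40% ± 21.2 (SD, n = 22 cells), and the SD was larger than that of 87.7% of the listed sites. Cells 16, 20, 7 and 12 were above the bulk rate of 19.4% and the other 18 below it.

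At the other end of the transcript, the 2012-nt site was covered in all 24 cells and edited in 7, from a lowest and a median of 0 to a highest rate of 62.5%. Cell 18 was at 62.5%, cell 20 at 38.5%, cell 16 at 22.4%, cell 12 at 13.0%, cell 6 at 11.8%, cell 17 at 11.1% and cell 9 at 4.00%. The mean was 6.80% ± 15.1 (SD, n = 24 cells). Cell 18, the highest here, was at 0 at the other 4 Sh3bgrl sites.

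The middle sites lie 43 and 45 nucleotides apart, close enough for a single read to cover all 3, and they were uncovered in the same 3 cells, 11, 13 and 21. The 1185-nt site was edited in 5 of 21 covered cells, at 37.5% in cell 4, 20.0% in cell 12, 16.7% in cell 16, 13.3% in cell 20 and 7.14% in cell 1. Its mean was 4.51% ± 9.71 (SD, n = 21 cells), the lowest of the 5. The 1230-nt site was edited in 3 cells, the fewest the list admits and as many as at 36 of the 171 sites, with cell 16 at 83.3%, cell 4 at 30.0% and cell 14 at 20.0% (mean 6.35% ± 19.2, SD, n = 21 cells). The 1273-nt site was edited in 4 cells, with cell 7 at 57.1%, cell 3 at 26.7%, cell 20 at 23.1% and cell 12 at 7.14% (mean 5.43% ± 14.0, SD, n = 21 cells). No cell had both the 1230-nt and the 1273-nt site edited.

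Leaving out the highest cell lowers any such mean, and the fall was largest at 1230 nt. The mean at 138 nt was 5.88% without cell 20, that at 1185 nt 2.86% without cell 4 and that at 1230 nt 2.5% without cell 16. The mean at 1273 nt was 2.84% without cell 7, and that at 2012 nt 4.38% without cell 18. A different cell was thus the highest at each of the 5 Sh3bgrl sites.

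**Figure D2:**
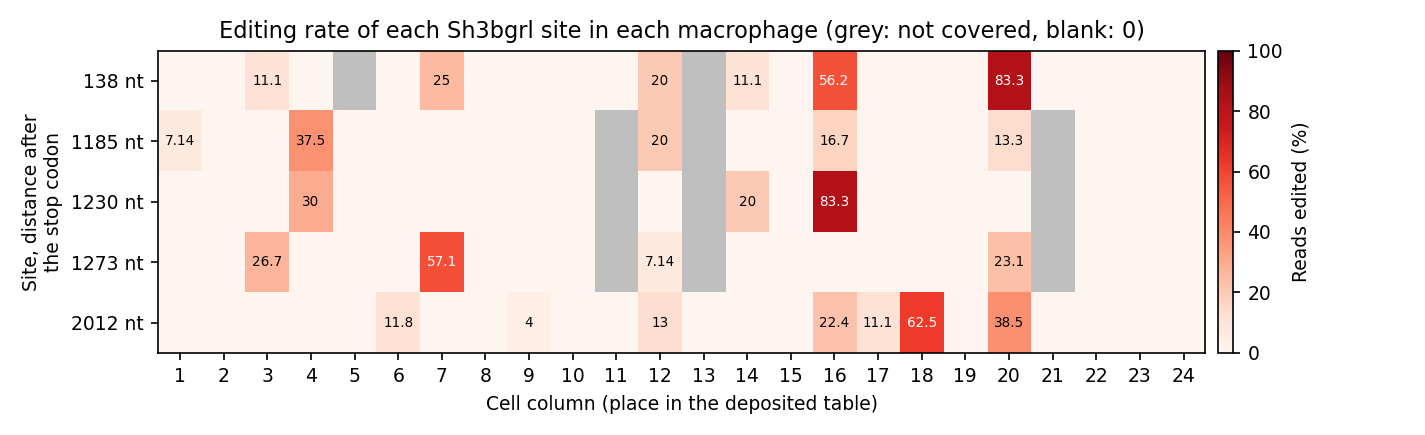
Editing rate in percent (colour and printed value) of the 5 listed Sh3bgrl sites (vertical axis, distance after the stop codon) in the 24 macrophages (horizontal axis, place of the column in the deposited table), grey where uncovered and blank at 0. Cells 12, 16 and 20 have 4 edited sites each and 12 cells have none.

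Editing in 5 or more cells was found at 3 of the 5 Sh3bgrl sites, against 62.6% of the single-cell list. The highest rate in a cell passed 50% at 4 of the 5, against 50.9% of the list. Neither share sets Sh3bgrl apart. At the 3 sites in both lists, the mean over cells was 0.483 of the bulk rate at 138 nt, 0.308 at 1185 nt and 0.322 at 2012 nt. The median of this ratio over the 55 sites in both lists was 0.583, with a range of 0.242 to 1.25, so these Sh3bgrl sites lie in the lower part of that range. The mean gives every cell equal weight whatever its reads, and sites entered the bulk list through their own bulk rate, so the ratios were not tested. A cell exceeded the bulk rate in 4 of 22 cases at 138 nt, 3 of 21 at 1185 nt and 3 of 24 at 2012 nt. The bulk sites at 258, 637 and 890 nt do not stand in the single-cell list, among them the site with the highest bulk rate. Those at 1230 and 1273 nt do not stand in the bulk list, and no comparison with the knockout library is stated for them.

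Whether Sh3bgrl sites were edited in the same cells was described by Pearson's r between the rates of 2 sites over the cells covered at both. The 10 pairs had r from -0.13 to 0.51, with a median of 0.24, and 8 of them were above 0. Over the 316 pairs of sites of the same gene in the list, Sh3bgrl included, 52.2% were above 0, and over the 13044 pairs of sites of different genes 42.6%. The median r was 0.02 over the 306 pairs of other genes and -0.05 over pairs of different genes. An r of at least 0.5 was reached by 1 of the 10 Sh3bgrl pairs, against 5.06% of same-gene pairs and 5.27% of pairs of different genes. Pairs that share a site or a cell are not independent, and 20 to 22 cells stand behind each Sh3bgrl value.

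The pairs that involve the 138-nt site, all more than 1000 nucleotides apart, were close to each other in Pearson's r but not in rho. With the 2012-nt site, 1874 nucleotides away, r was 0.46 (Spearman's rho 0.37, n = 22 cells), and both sites were edited in cells 12, 16 and 20. With the 1273-nt site r was 0.43 (rho 0.75, n = 20 cells), and all 4 cells edited at 1273 nt, cells 3, 7, 12 and 20, were edited at 138 nt as well. With the 1230-nt site r was 0.43 (rho 0.32, n = 20 cells), with 2 cells edited at both. With the 1185-nt site r was 0.35 (rho 0.44, n = 20 cells), with 3 cells edited at both. The median r of these pairs was 0.43, against 0.08 over 13 pairs from 5 other genes at 1000 nucleotides or more.

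Nearness in the transcript did not go steadily with a higher or lower r in Sh3bgrl. Distance cannot be told apart from the sites involved, because every pair more than 1000 nucleotides apart includes the 138-nt site. Among the 3 pairs within the length of a read, the 1185-nt and 1230-nt sites had r = 0.51 (rho 0.49, n = 21 cells), edited together in cells 4 and 16. The 1185-nt and 1273-nt sites had r = -0.02 (rho 0.24, n = 21 cells), with cells 12 and 20 edited at both. The 1230-nt and 1273-nt sites, 43 nucleotides apart, had r = -0.13 (rho -0.20, n = 21 cells). The 3 pairs of a middle site with the 2012-nt site, 739 to 827 nucleotides apart, had r of 0.02 to 0.14. Over other genes the median r was 0.04 for 73 pairs under 100 nucleotides apart, -0.02 for 160 pairs from 100 to under 500 and 0.01 for 60 pairs from 500 to under 1000.

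**Figure D3:**
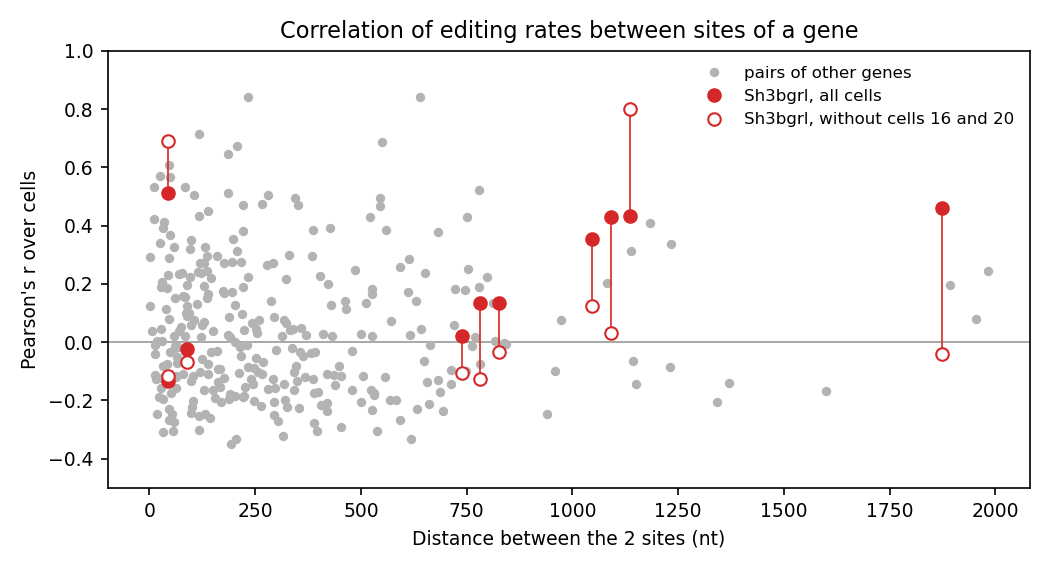
Pearson's r over cells (vertical axis) against the distance between the sites in nucleotides (horizontal axis). Grey points are the 306 pairs of other genes, filled red points the 10 Sh3bgrl pairs over all cells and open red points the same pairs without cells 16 and 20; without these cells 7 of the 10 lie below 0.1 and the pair of the 138-nt and 1273-nt sites rises to 0.80.

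The positive median of Pearson's r depended on keeping cells 16 and 20. They are the 2 cells farthest from the median of the mean Sh3bgrl rate, at 35.7% and 31.6%, while no other cell was above 16.4%. Without them the median r over the 10 pairs was -0.04. These cells were picked by the same rates that enter r, so a fall was likely whatever the other cells did. For the 138-nt and 2012-nt sites r went from 0.46 to -0.04, for 138 and 1230 nt from 0.43 to 0.03, and for 138 and 1185 nt from 0.35 to 0.12. Only 2 pairs kept a high value, 138 nt with 1273 nt at r = 0.80 (n = 18 cells), with cells 3, 7 and 12 edited at both, and 1185 nt with 1230 nt at r = 0.69 (n = 19 cells), with cell 4 the only one edited at both. Without cell 16 alone the median r was 0.06, and without cell 20 alone 0.20. Without cell 4, edited at the 1185-nt and 1230-nt sites only, it was 0.39, more than 1.5 times the value over all cells. When each cell was read only as edited or unedited, the median coefficient was 0.31, and it was 0.34 by Spearman's rho. Both of these values include cells 16 and 20. Cell 12, with a mean Sh3bgrl rate of 12.0%, had 4 edited sites, as many as cell 16 or cell 20. Joint editing of Sh3bgrl sites was thus seen in a part of the cells, with 2 or more sites edited in 7 of the 24 and none in 12.

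Among the 13 genes with at least 3 pairs of listed sites, Sh3bgrl had the highest median r, followed by Atp6ap1, which encodes a subunit that accompanies the vacuolar ATPase, at 0.21 over 6 pairs. Atp6ap2, which encodes another such subunit, had 0.04 over 55 pairs, App, the amyloid precursor protein gene, 0.02 over 105 pairs and Nptn, the neuroplastin gene, -0.11 over 21 pairs. Sh3bgrl was selected because its sites appeared to be edited together in these cells, so a high place was built into the choice. Its place also changed when such cells were left out. When every gene was taken without the 2 cells farthest from its own median, an alternative chosen after seeing the data, Sh3bgrl was 8th of the 13, Slc44a1 first with 0.09 and Atp6ap1 at -0.002. Among these 13 genes, Sh3bgrl had the most concentrated editing, a value drawn from the same single-cell rates on which it was chosen. Its 2 highest cells held 47.3% of the sum of the cells' mean rates, against 11.5% in B2m and 32.9% in Slc44a1, the next highest. Its 12 cells with no edited site compare with 13 of 23 in Slc44a1, 11 in Lamp2 and in Cd36, 3 in Nptn and none in B2m. Genes with more listed sites have more chances of an edited site in a cell, and Sh3bgrl has 5 against 3 in Slc44a1 and 7 in B2m.

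**Figure D4:**
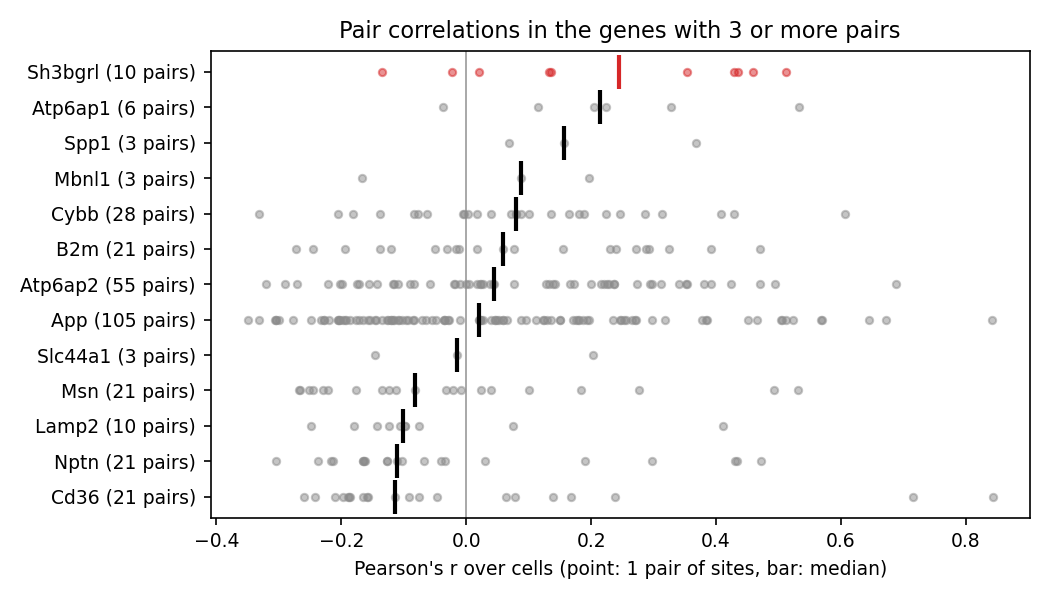
Pearson's r over cells (horizontal axis) of each pair of sites (points) and its median (bars) in the 13 genes with at least 3 pairs, Sh3bgrl in red. Sh3bgrl has the highest median, 0.24, and its highest pair, 0.51, lies below the highest pairs of Cd36, App, Atp6ap2, Cybb, Atp6ap1 and Msn.

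Cells with edited Sh3bgrl were not generally the most edited ones. The mean rate over all other listed sites of a cell had r = 0.16 with its mean Sh3bgrl rate (rho 0.24, n = 24 cells), and r = 0.04 without cells 16 and 20. Cell 16 had a mean of 11.4% at other sites with 80 of them edited, the highest number of the 24, and cell 20 a mean of 8.04% with 41 edited. Cell 22 had the highest mean at other sites, 14.9%, and no edited Sh3bgrl site with all 5 covered. The 12 cells with Sh3bgrl editing had 32 to 80 other sites edited (median 56) and the 12 without it 32 to 77 (median 47.5), so the groups overlapped throughout. All 12 cells with Sh3bgrl editing had all 5 sites covered, whereas 4 of the 12 without it lacked 1 or more, so fewer values stood behind some of those zeros. The part of read depth in these patterns was not tested.

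**Figure D5:**
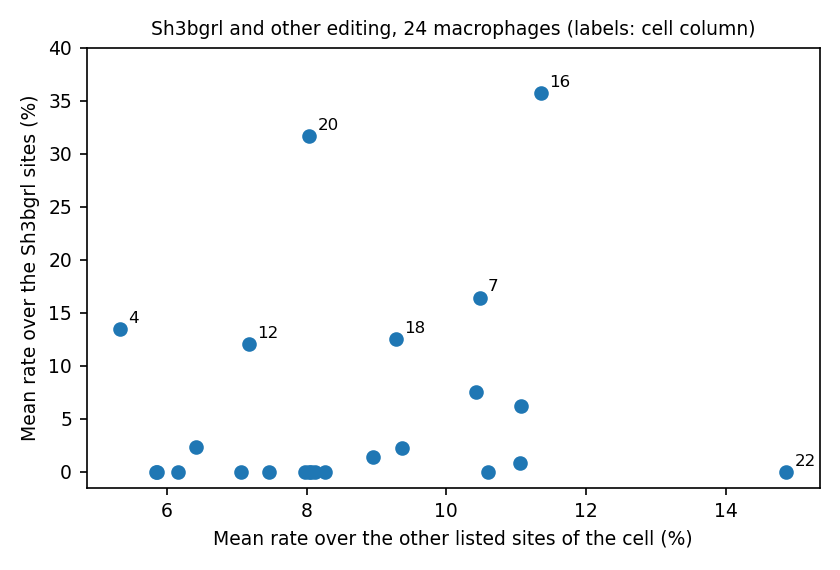
Mean editing rate over the Sh3bgrl sites in percent (vertical axis) against the mean over all other listed sites (horizontal axis), with 1 point per macrophage and the column number of the cells named. Cells 16 and 20 stand apart on the vertical axis, at 35.7% and 31.6%, and cell 22, the highest on the horizontal axis, is at 0.

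The genes whose editing over cells was most like that of Sh3bgrl were sought among the 58 other genes with at least 20 cells in common, by r between the mean rates per gene. Their median r was 0.03, and 3.45% of them reached 0.5. Anxa5, which encodes the phosphatidylserine-binding protein annexin A5, came first with r = 0.56 (rho 0.57, n = 24 cells) and had r = 0.58 without cells 16 and 20. Its single listed site was edited in 22 of the 24 cells, at 22.7% in cell 16 and 26.3% in cell 20. Selenof, which encodes a selenoprotein of the endoplasmic reticulum, followed with r = 0.52 (rho 0.25, n = 22 cells). It was edited in 3 cells only, at 87.5% in cell 20, and its r was 0.19 without cells 16 and 20. Itgam, the gene for the integrin chain CD11b, had r = 0.49 (rho 0.30, n = 22 cells) and 0.20 without those cells, with 36.4% in cell 16 and 0 in cell 20. Cd36, a scavenger receptor gene, had the lowest value, r = -0.32 (rho -0.33, n = 23 cells), and was at 0 in cells 16 and 20. These values describe likeness over the same libraries, and carry no test.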

How the data were processed

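RNA of bone marrow-derived macrophages was sequenced by the authors as 100-nucleotide reads. Per the labels, reads were trimmed with Trim Galore 0.2.5, aligned to mm10 with TopHat2 and cleared of duplicates with Picard. For bulk sites the authors' filters were a vector magnitude of 15 and an angle of 0.11 radians between genotypes, and known variants, splice junctions and repeats were removed. In the bulk list the authors deposited a count of reads covering each site and, as a fraction, the editing rate. Depth multiplied by rate was whole within 0.001 at all 410 sites, and each had 17 or more reads. In the single-cell list they deposited the editing rate in every cell as a fraction, without depth, together with the fraction of cells edited, and kept sites edited in 3 cells or more. No other filter of that list is given in the sources used here.

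Rates were converted to percent. Bulk rates were compared by Fisher's exact test over 15 pairs with Benjamini-Hochberg adjustment, and intervals of differences are Newcombe's. Correlations over all cells needed 10 covered cells for a pair of sites and 20 for a pair of genes. Positions were placed on GRCm38, which had a C or a G at each of the 526 sites, with GENCODE vM21. Symbols turned into dates, 2 in the single-cell list and 3 in the bulk list, were restored by position. The members and lists were chosen with earlier results of these data known. Named are Sh3bgrl, the 3 genes most like it and the 1 least like it, and the genes used to compare site pairs; Atp6ap1, Slc44a1, B2m, Lamp2 and Cd36 were named in the comparison of site pairs after their values were seen. The procedures were tested on simulated data. Alternatives varied the coefficient, the treatment of uncovered cells, the cells, the pairs, the read minimum and the test. Python 3.11.15, NumPy 2.4.6, SciPy 1.17.1, pandas 2.3.3 and matplotlib 3.10.9 were used.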

Additional observations from a re-analysis of the deposited data

How the results depend on the processing

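The median r over the 10 Sh3bgrl pairs was 0.24 and turned to -0.038 without the 2 cells farthest from the median Sh3bgrl rate; with 1 cell left out at a time it ran from 0.06 to 0.39. It was 0.34 by Spearman's rho, 0.31 for edited against unedited, 0.27 with uncovered cells at 0 and 0.35 over pairs more than 100 nucleotides apart. With 1 cell left out, the mean rate ran from 5.88% to 9.85% at 138 nt, 2.86% to 4.73% at 1185 nt, 2.5% to 6.67% at 1230 nt, 2.84% to 5.70% at 1273 nt and 4.38% to 7.10% at 2012 nt. The ratio to the bulk rate ran from 0.302 to 0.506 at 138 nt, 0.195 to 0.323 at 1185 nt and 0.207 to 0.336 at 2012 nt. The median over covered cells was 0 at each site. The r of Anxa5 with Sh3bgrl ran from 0.51 to 0.62 with 1 cell left out. In the planned ranks with 1 cell left out, Anxa5 was first for 15 of the 24 cells. Sypl has fewer than 20 cells in common with Sh3bgrl and is not among the 58 genes compared over all cells. It was first in these ranks without cell 1, 6, 9, 11 or 20, so they did not hold to that minimum. In ranks added after seeing the data, held to the same 58 genes, Anxa5 stayed first for 19 of the 24 cells. In these, Selenof was first without cell 7, 16 or 22, Tmem59 without cell 13 and Itgam without cell 20. Among genes with at least 3 listed sites the first was Lamp2, at r = 0.32. No pair of bulk rates passed 0.05 after adjustment under any of the 4 test settings, and none did before it; the lowest unadjusted p was 0.0889, for 890 nt against the other sites pooled (Fisher's exact test). The rates per cell stand in unnamed columns, so sites were paired by column but the columns could not be joined to named cells. Each genotype has 1 bulk library, so no paired comparison of genotypes was possible. Bulk depths of 35 to 71 reads limit the comparison of rates between sites, and the unknown depth per cell limits every value at 0.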
